A study of Homo sapiens with 10 samples.

Results

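The genes described here encode ligands by which a stressed or transformed cell can be recognised by natural killer (NK) cells. The set holds 7 genes, chosen by name: MICA, MICB, ULBP1, ULBP2 and ULBP3, whose products bind the receptor NKG2D, and PVR and PVRL2 (NECTIN2), whose products bind the receptor DNAM1. All 7 were found in every one of the 10 deposited tables, among 36545 gene features in the tables of the interferon experiment and 22554 in those of the knockdown experiment. RNA of 3 esophageal squamous cell carcinoma (ESCC) cell lines had been sequenced. In the interferon experiment cells of KYSE30, KYSE180 and KYSE450 received interferon-β (IFN-β) at 1000 IU/ml, or only buffer (untreated), for 72 h, with 1 library per line and group. In the knockdown experiment KYSE30 and KYSE180 cells carried a lentiviral knockdown of the long non-coding RNA IRF1-AS, or a vector control, again with 1 library per line and group. All cells were used at passages 5-10. The lines served as the replicates (n = 3 lines for IFN-β, n = 2 lines for the knockdown). The treatment p-values therefore rest on how far the within-line difference varied between lines, and not on repeat cultures of a line. The test (limma) also draws the variance of each gene toward that of other genes of like level. Each SE, interval and p-value given below is thus not the spread between the lines alone. Tests between lines compare the 2 libraries of each line, 1 per group, so they hold no repeat cultures either. Their error is taken from all libraries of the experiment, lines outside the compared pair included.

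NKG2D is carried by NK cells and by many cytotoxic T cells, and its ligands MICA, MICB and the ULBP proteins are distant relatives of MHC class I molecules that present no peptide. They are scarce on most healthy cells and are known to be induced by heat shock, DNA damage and other stresses. PVR (CD155) and PVRL2 (CD112) are adhesion molecules of the nectin family, which activate NK cells through DNAM1 and restrain them through TIGIT, CD96 or PVRIG. Classical and non-classical MHC class I molecules, such as HLA-C and HLA-E, deliver inhibitory signals to NK cells. Type I interferons such as IFN-β are known to raise MHC class I through IRF factors. Only RNA was measured here, so the amount of ligand on the cell surface is not known, and in bulk RNA a change in every cell and a change in some cells cannot be told apart.

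The genes lie in 3 places in the genome (hg38, GENCODE 29 annotation, all protein-coding). MICA (chr6:31399784-31415315, plus strand) and MICB (chr6:31494881-31511124, plus strand) are neighbours in the MHC region, with 79565 bases between them. The non-coding gene HCP5 overlaps 14614 of the 15532 bases of MICA on the same strand and does not overlap MICB. ULBP1 (chr6:149964007-149973710, plus strand), ULBP2 (chr6:149942000-149949235, plus strand) and ULBP3 (chr6:150063150-150069095, minus strand) lie in a cluster with the related genes RAET1E, RAET1G and RAET1L that spans 185721 bases. PVR (chr19:44643798-44663583, plus strand) and PVRL2 (chr19:44846175-44889228, plus strand) lie 182591 bases apart on chromosome 19.

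Some of these transcripts share sequence, which short reads cannot always assign. Of the positions of a ULBP2 transcript, 29.4% began a stretch of 50 bases that also occurs in RAET1L, and 11.6% one that occurs in RAET1G. The same share was 2.04% for MICA with MICB, 6.50% for ULBP3 with ULBP1 and 0 for PVR with PVRL2. Values of ULBP2 and RAET1L are therefore uncertain against each other, since no source used here states the counting of shared reads.

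The promoters of MICA and MICB are shown because these were the 2 genes with a higher value under IFN-β in all 3 lines after scaling between libraries, and because their windows are near copies. The windows run from 250 bases before to 50 bases after the RefSeq start (GRCh38.p14, plus strand, 5′ to 3′), chr6:31403345-31403644 for MICA and chr6:31497895-31498194 for MICB. Both RefSeq starts lie downstream of the GENCODE gene starts given above. Capitals mark a match to the heat shock element GAANNTTC.
MICA: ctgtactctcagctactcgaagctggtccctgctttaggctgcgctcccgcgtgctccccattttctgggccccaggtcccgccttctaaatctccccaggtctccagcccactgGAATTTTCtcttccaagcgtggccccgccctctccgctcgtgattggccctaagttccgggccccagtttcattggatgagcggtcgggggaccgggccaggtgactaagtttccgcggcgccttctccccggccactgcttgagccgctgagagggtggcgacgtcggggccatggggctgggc
MICB: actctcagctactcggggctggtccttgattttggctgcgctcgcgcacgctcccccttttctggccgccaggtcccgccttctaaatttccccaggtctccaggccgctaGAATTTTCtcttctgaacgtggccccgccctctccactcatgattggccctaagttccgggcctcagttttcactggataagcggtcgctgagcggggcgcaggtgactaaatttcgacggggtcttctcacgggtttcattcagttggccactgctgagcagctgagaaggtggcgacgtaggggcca
The windows were identical at 87.3% of 284 aligned bases. The heat shock element began at position -135 from the start in MICA and at -139 in MICB, and 6.77% of 35116 RefSeq promoter windows of the same length held one on either strand. No window of the 7 genes held GAAA, any 2 bases and GAAA again, a core of the interferon-stimulated response element found in 3.57% of all windows. The window of ULBP3 (chr6:150069072-150069371, minus strand) held 6 GC boxes (GGGCGG), a motif present in 45.0% of windows. That of PVRL2 (chr19:44846047-44846346, plus strand) held the CRE core TGACGT at its start, on both strands, and 7.98% of windows held that motif. These are matches of letters in short windows, with no measurement of binding.

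Expression is given as FPKM, a level normalised for gene length and library size, as deposited. The named genes of the interferon tables summed to 988427 to 993533 FPKM per library and the knockdown tables to 399081 to 425340, so levels are compared only within an experiment. Read depth is not known for the interferon tables, while steps in the low values put the other knockdown libraries at 86.2% to 102% of the depth of the KYSE30 vector library. The median gene of KYSE450 was 0.41 higher on the log2 scale under IFN-β than untreated as deposited, against -0.01 in KYSE30 and -0.02 in KYSE180, and the non-coding RNAs RMRP and RPPH1 together took 26.5% of FPKM in IFN-β-treated and 38.4% in untreated KYSE450. Tests therefore used FPKM divided by median-of-ratios factors ("scaled FPKM"), on log2(scaled FPKM + 1), which understates changes of low genes. All 10 squamous epithelial markers examined reached 1 FPKM in both experiments. None of 14 NK and T cell receptor genes did, KLRK1 (NKG2D), CD226 (DNAM1) and TIGIT included, and of 11 leukocyte markers only CD68 did, with GNLY, GZMB and CD3D among those at 0 in every interferon library, so that the ligands were measured in cells with little or no RNA of their receptors. IRF1-AS is the RefSeq synonym IRF1-AS1 of the row named C5orf56, which had 3.04 FPKM in knockdown and 6.86 FPKM in vector KYSE30, and 0.948 FPKM in knockdown and 1.08 FPKM in vector KYSE180.

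MICA, MICB and 4 of the other ligands had positive fold changes under IFN-β and ULBP3 a negative one, but none of the 7 passed the test at an adjusted p of 0.05. A positive log2 fold change was found in 5968 of all 12428 genes tested. MICB, an NKG2D ligand known from stressed epithelium, had the largest fold change of the 7 and was higher with IFN-β in each line. In the same fit HLA-B, HLA-C, HLA-E and HLA-F, whose products inhibit NK cells through KIR, NKG2A or LIR receptors, rose, by 1.53 to 3.90 on the log2 scale. Of all 12428 genes tested, 55 (0.443%) were called, 54 higher and 1 lower, and 9.50% had an unadjusted p under 0.05, MICB alone among the ligand genes.

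**Figure D1:**
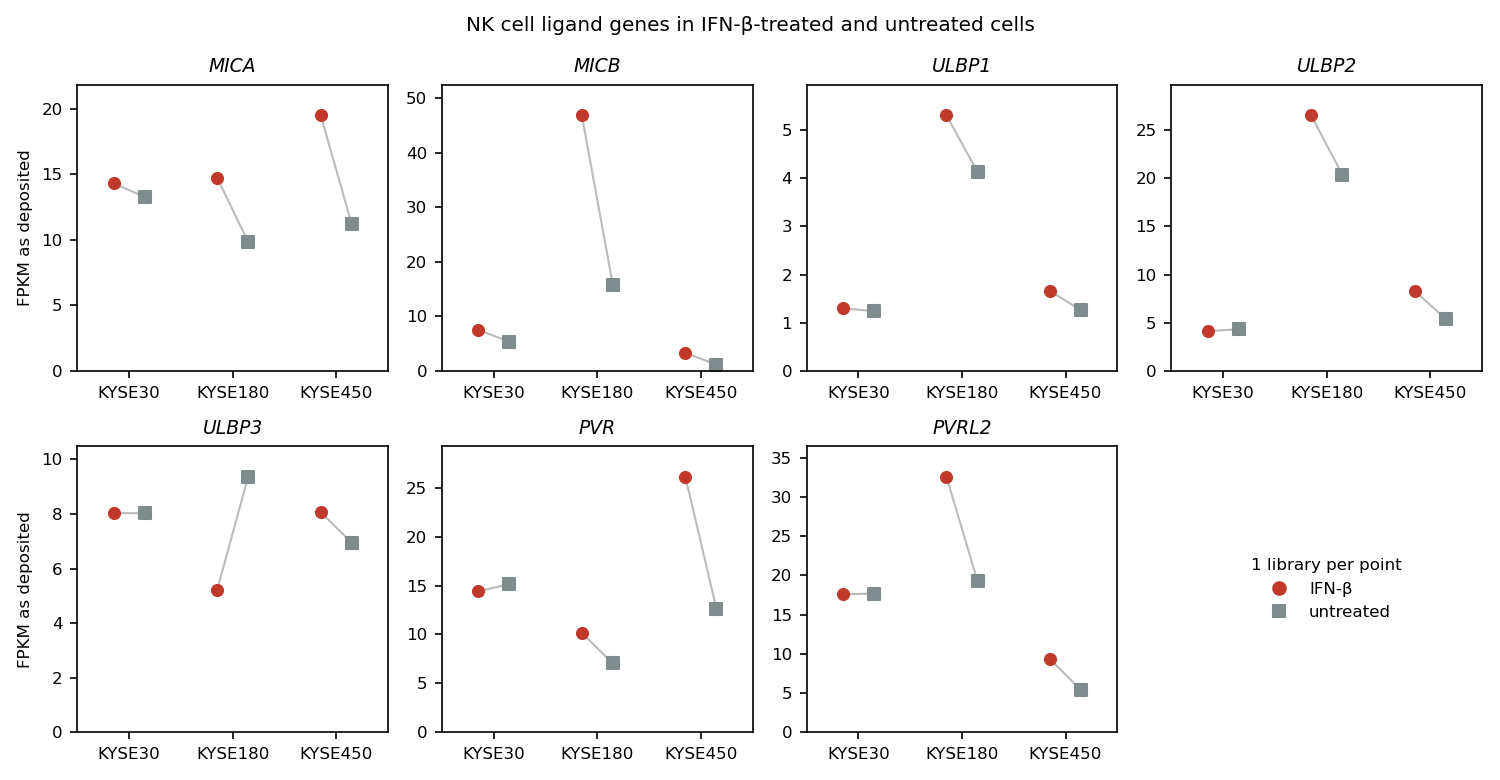
FPKM as deposited (vertical axis, from 0, own range for each gene) of the 7 ligand genes in KYSE30, KYSE180 and KYSE450, 1 library per point, with IFN-β as red circles and untreated as grey squares joined within a line. MICB stood at 46.92 FPKM in IFN-β-treated KYSE180, against 15.80 FPKM in untreated KYSE180, and the ULBP3 pair of KYSE30 was level at 8.04 and 8.03 FPKM.

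MICB had 7.51 FPKM in IFN-β-treated and 5.39 FPKM in untreated KYSE30, 46.92 FPKM in IFN-β-treated and 15.80 FPKM in untreated KYSE180, and 3.30 FPKM in IFN-β-treated and 1.16 FPKM in untreated KYSE450. The groups overlapped widely, with the lines at different levels, while within each line the IFN-β library was the higher one. In scaled FPKM, with no pseudocount, MICB was 1.39-fold higher in KYSE30, 3.13-fold in KYSE180 and 1.97-fold in KYSE450. The log2 fold change was 0.88 ± 0.24 (SE, n = 3 lines, 95% interval 0.31 to 1.45), with an unadjusted p of 0.00898 and an adjusted p of 0.384 (limma, Benjamini-Hochberg). With the values as deposited the call was made, at a log2 fold change of 0.97 and an adjusted p of 0.0105 (limma). The shift of all KYSE450 genes enters that fold. The same fit gave IFI27 an adjusted p of 3.07e-311 (limma) from 6 libraries. P-values of the fit on deposited values are thus implausibly small, and the MICB call rests on them. Without KYSE180 the log2 fold change of MICB was 0.53 on scaled values.

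MICA had 14.31 FPKM in IFN-β-treated and 13.29 FPKM in untreated KYSE30, 14.75 FPKM in IFN-β-treated and 9.84 FPKM in untreated KYSE180, and 19.52 FPKM in IFN-β-treated and 11.20 FPKM in untreated KYSE450. As deposited, the 3 IFN-β values lay above all 3 untreated ones, as for 2.89% of all genes, while after scaling the lowest IFN-β value, 13.4, fell below the highest untreated one, 14.2. Its log2 fold change was 0.32 ± 0.14 (SE, 95% interval -0.03 to 0.66, adjusted p 0.541, limma). MICA and MICB were the 2 of 7 ligand genes that were higher in all 3 lines on scaled values, a pattern that 16.7% of all tested genes had. The feature named HCP5 had 0.30 FPKM in IFN-β-treated and 0.08 FPKM in untreated KYSE30. It had 78.00 FPKM in IFN-β-treated and 4.02 FPKM in untreated KYSE180, and 16.65 FPKM in IFN-β-treated and 1.33 FPKM in untreated KYSE450. Its gene model is stated in no source used here, so its own overlap with MICA is not known. A second HCP5 feature, among the long non-coding transcripts, carries the identifier of the GENCODE gene that overlaps MICA. That feature was listed at 0.825 FPKM in untreated KYSE450 and at 0 in the other libraries. The named HCP5 feature thus passed 1 FPKM in KYSE180 and KYSE450 and not in KYSE30, and whether reads of HCP5 enter the MICA value was not tested. The MICA transcript shared 0.588% of its 50-base stretches with HCP5.

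The ULBP genes encode smaller ligands, several of which are held in the membrane by a lipid anchor. ULBP1 had 1.30 FPKM in IFN-β-treated and 1.24 FPKM in untreated KYSE30, 5.31 FPKM in IFN-β-treated and 4.13 FPKM in untreated KYSE180, and 1.66 FPKM in IFN-β-treated and 1.26 FPKM in untreated KYSE450. ULBP2 had 4.13 FPKM in IFN-β-treated and 4.32 FPKM in untreated KYSE30, 26.55 FPKM in IFN-β-treated and 20.39 FPKM in untreated KYSE180, and 8.32 FPKM in IFN-β-treated and 5.39 FPKM in untreated KYSE450. In both, the KYSE180 libraries were the highest of each group, and the groups overlapped. The log2 fold change was 0.10 ± 0.16 for ULBP1 (SE, 95% interval -0.27 to 0.48, adjusted p 0.843, limma) and 0.15 ± 0.15 for ULBP2 (SE, 95% interval -0.19 to 0.50, adjusted p 0.743, limma). RAET1L, the NKG2D ligand gene that shares most sequence with ULBP2, had a log2 fold change of -0.10 (adjusted p 0.841, limma), and RAET1E and RAET1G did not exceed 0.71 FPKM in the interferon experiment.

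ULBP3 had 8.04 FPKM in IFN-β-treated and 8.03 FPKM in untreated KYSE30, 5.22 FPKM in IFN-β-treated and 9.37 FPKM in untreated KYSE180, and 8.07 FPKM in IFN-β-treated and 6.95 FPKM in untreated KYSE450. Its scaled FPKM in untreated cells, 8.44 ± 0.297 (SD, n = 3), had the smallest SD of the 7 genes. After scaling, the IFN-β value was the lower one in all 3 lines, as for 18.6% of all genes, though in KYSE30 by a log2 ratio of only -0.00134. The log2 fold change was -0.31 ± 0.16 (SE, 95% interval -0.70 to 0.07, adjusted p 0.584, limma). Within KYSE180, MICB, PVRL2 and MICA were at least 1.5-fold higher under IFN-β in scaled FPKM + 1 (7.85% of all genes were) and ULBP3 at least 1.5-fold lower (8.01% of all genes). With no pseudocount PVR passed that fold there too, at 1.52-fold. In KYSE450 this held for MICB alone, upward (5.48% of all genes higher, 6.90% lower), and in KYSE30 for none (2.72% of all genes higher, 1.29% lower).

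The DNAM1 ligand gene PVR had 14.41 FPKM in IFN-β-treated and 15.14 FPKM in untreated KYSE30, 10.16 FPKM in IFN-β-treated and 7.04 FPKM in untreated KYSE180, and 26.11 FPKM in IFN-β-treated and 12.64 FPKM in untreated KYSE450. PVRL2 had 17.58 FPKM in IFN-β-treated and 17.70 FPKM in untreated KYSE30, 32.59 FPKM in IFN-β-treated and 19.29 FPKM in untreated KYSE180, and 9.34 FPKM in IFN-β-treated and 5.39 FPKM in untreated KYSE450. Both were slightly lower with IFN-β in KYSE30 and higher with IFN-β in the other lines, and the groups overlapped. The log2 fold change was 0.32 ± 0.16 for PVR (SE, 95% interval -0.06 to 0.70, adjusted p 0.572, limma) and 0.34 ± 0.18 for PVRL2 (SE, 95% interval -0.08 to 0.76, adjusted p 0.584, limma). Without KYSE180 the log2 fold changes were smaller in size, at 0.11 for PVRL2, 0.21 for PVR, 0.18 for MICA, 0.014 for ULBP2, -0.021 for ULBP1 and -0.14 for ULBP3. Without KYSE30 they were 0.51 for PVR, 0.51 for PVRL2 and 0.26 for ULBP2. None of the 4 tested nectin and nectin-like genes (PVRL1, PVRL3, PVRL4 and CADM4) passed the test, with log2 fold changes between 0.01 and 0.07, and CADM1, whose product binds the receptor CRTAM, did not exceed 0.02 FPKM.

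**Figure D2:**
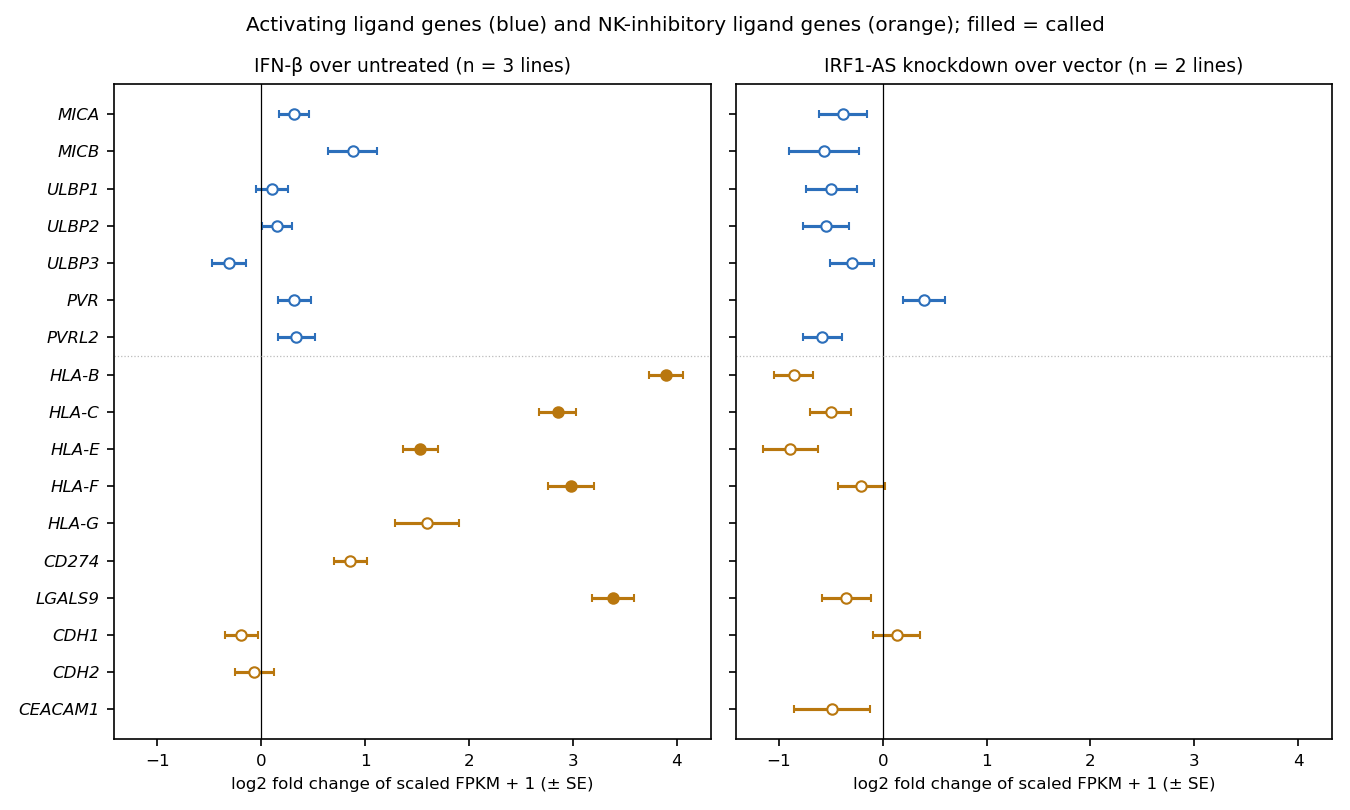
Log2 fold change (horizontal axis, of scaled FPKM + 1, with SE) of the 7 ligand genes (blue) and of the NK-inhibitory ligand genes named on the axis (orange), for IFN-β over untreated in 3 lines (left) and IRF1-AS knockdown over vector in 2 lines (right). Filled points passed the test, which HLA-B, HLA-C, HLA-E, HLA-F and LGALS9 did under IFN-β, while the 7 ligand genes lay between -0.31 and 0.88 there.

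Several inhibitory ligand genes rose in the same libraries. Of the 10 tested genes of the inhibitory list, 5 were called higher under IFN-β and none lower, against 0.435% of all genes called higher. By value, 8 of the 10 were positive and 2 negative. The median log2 fold change of the list was 1.86, against 0.32 for the 7 ligand genes and -0.01 for all genes. HLA-B had 584.95 FPKM in IFN-β-treated and 48.32 FPKM in untreated KYSE30, 1237.38 FPKM in IFN-β-treated and 72.70 FPKM in untreated KYSE180, and 417.30 FPKM in IFN-β-treated and 17.36 FPKM in untreated KYSE450. Its log2 fold change was 3.90 ± 0.16 (SE, adjusted p 0.00019, limma), and every IFN-β value lay above every untreated one. HLA-E, whose product engages the inhibitory receptor NKG2A, had 206.15 FPKM in IFN-β-treated and 54.97 FPKM in untreated KYSE30, 375.73 FPKM in IFN-β-treated and 140.05 FPKM in untreated KYSE180, and 109.66 FPKM in IFN-β-treated and 32.09 FPKM in untreated KYSE450. It rose by 1.53 ± 0.17 on the log2 scale (SE, adjusted p 0.0177, limma), although the untreated KYSE180 library lay above the IFN-β-treated KYSE450 library. HLA-C rose by 2.85, HLA-F by 2.98 and LGALS9, which encodes a ligand of TIM-3, by 3.39 on the log2 scale (adjusted p 0.00125, 0.00445 and 0.00125, limma). HLA-G, at 1.60 (adjusted p 0.202, limma), did not pass, nor did CD274, which encodes PD-L1, at 0.86 (adjusted p 0.135, limma). HLA-F lost its call without the filter on low values (adjusted p 0.0893, limma) and without KYSE180 (adjusted p 0.0523, limma). HLA-E lost it without the filter (adjusted p 0.217, limma), without KYSE30 (adjusted p 0.121, limma) and without KYSE180 (adjusted p 0.0692, limma). The HLA genes share sequence too, and no source used here states how their common reads were counted.

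Few other genes of the ligand pathway were called under IFN-β. None of 10 tested genes for further activating or adhesion ligands passed, the largest values being 0.35 for CLEC2B, the ligand of NKp80, and 0.32 for NCR3LG1, the ligand of NKp30 that the tables list as DKFZp686O24166. None of 9 genes for shedding and release of ligands passed, among them ADAM10 at -0.06 and ADAM17 at -0.06, which cleave MICA and MICB, and TIMP3, an inhibitor of ADAM17, at -0.47. None of 7 tested genes listed as acting on the ligands after their synthesis passed, the largest values being -0.46 for UFL1 (listed as KIAA0776, and at -0.095 without KYSE180) and -0.34 for CDC42. Of 27 genes listed as regulators of ligand genes 2 were called, both higher, and 7 had negative values. IRF1 was among the called, at 1.30 on the log2 scale (adjusted p 0.0144, limma). IRF1 lost its call without KYSE30 (adjusted p 0.0788, limma) and without the filter (adjusted p 0.143, limma). The heat shock factor HSF1 had a log2 fold change of 0.06 and the DNA damage kinases ATM and ATR had -0.21 and -0.13. All 9 interferon-response genes had positive values, and 5 of them were called. IFI27, at 8.28, and ISG15, at 5.60 on the log2 scale, were among these (adjusted p 4.91e-06 and 5.19e-05, limma). CD68, the one leukocyte marker above 1 FPKM, had a log2 fold change of 0.96 (adjusted p 0.319, limma), while the other 10 leukocyte markers stayed below 1 FPKM in every library. The 11 markers summed to 2.74 to 16.19 FPKM in IFN-β-treated and 0.65 to 9.36 FPKM in untreated libraries, and their part in the ligand values was not tested. None of the 10 squamous epithelial markers was called, and 9 of them had negative values, led by KRT5 at -0.89 (adjusted p 0.0917, limma) and KRT14 at -0.70 (adjusted p 0.508, limma). KRT5 was called with the values as deposited (-0.73, adjusted p 0.00755, limma), at a fold change smaller in size and in the fit with implausibly small p-values. These markers summed to 508 to 7177 FPKM in IFN-β-treated and 482 to 8557 FPKM in untreated libraries, and their part in the ligand values was not tested either.

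After IRF1-AS knockdown, 5 of the 7 ligand genes (MICA, ULBP1, ULBP2, ULBP3 and PVRL2) were lower in both lines, 1 (PVR) was higher in both, and MICB was lower in KYSE180 alone. MICA stands here for the sum of several rows, which did not all go the same way. The target row C5orf56 itself had 0.948 FPKM in knockdown and 1.08 FPKM in vector KYSE180, so these values show little lowering of IRF1-AS in that line. No ligand gene passed the test, and neither did any of the 12799 genes tested (0%, limma), of which 828 (6.47%) had an unadjusted p under 0.05, PVRL2 alone among the ligand genes. On scaled values 26.0% of all genes were lower in both lines and 26.3% were higher in both. With 2 lines an exact sign test on 1 gene cannot give a p below 0.5, so these values are descriptions of 4 libraries. With the 3 lines of the interferon experiment that test cannot go below 0.25, so smaller p-values there depend on the variance model of limma. At least 1.5-fold lower after knockdown in scaled FPKM + 1 were ULBP1 and PVRL2 within KYSE30 (10.5% of all genes) and MICB and ULBP2 within KYSE180 (7.89% of all genes). With no pseudocount MICA passed that fold in KYSE180 too, at a ratio of 0.626 of knockdown over vector. No ligand gene was 1.5-fold higher within either line, as 7.49% of all genes were in KYSE30 and 5.47% in KYSE180.

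**Figure D3:**
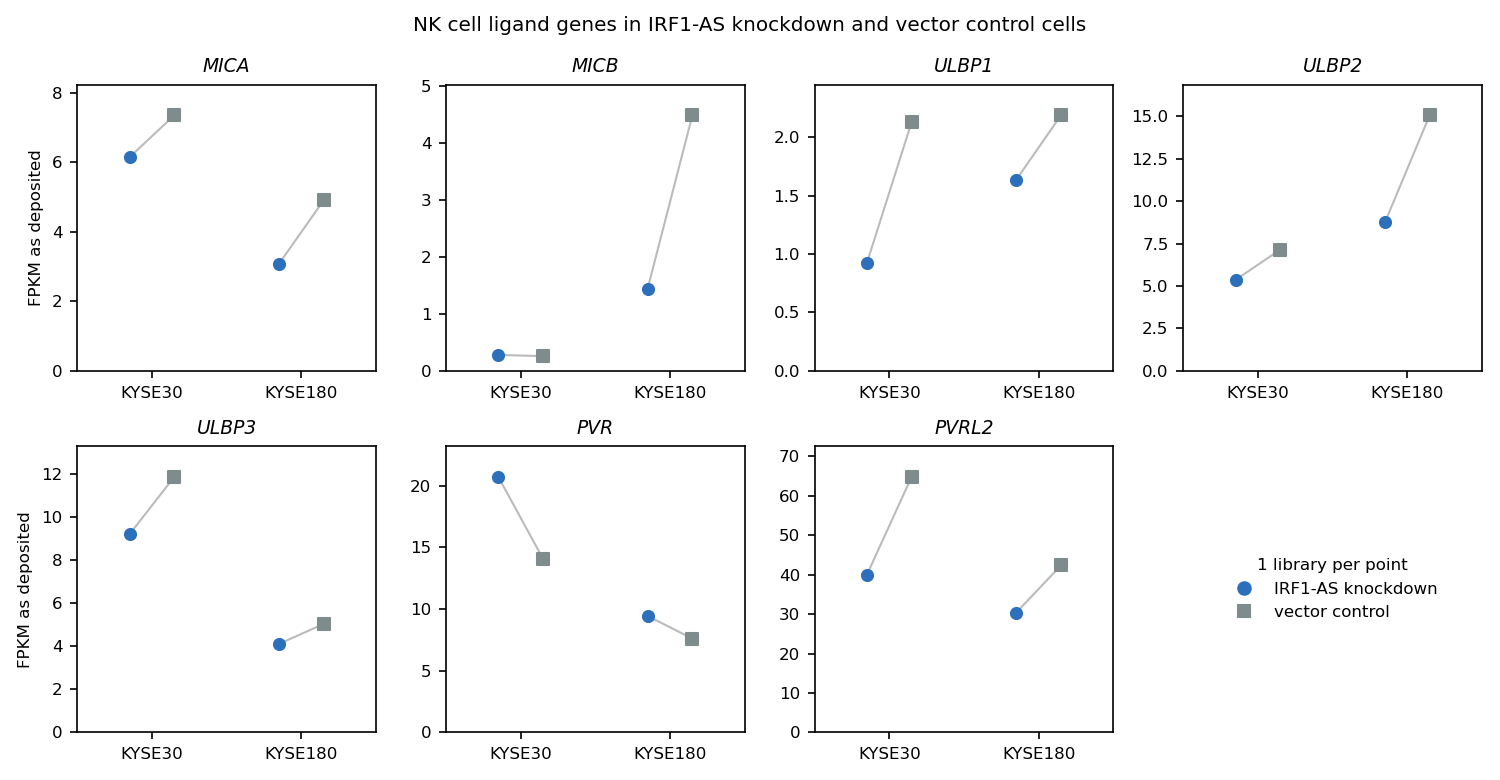
FPKM as deposited (vertical axis, from 0, own range for each gene) of the 7 ligand genes in KYSE30 and KYSE180, 1 library per point, with IRF1-AS knockdown as blue circles and vector control as grey squares joined within a line. PVR was higher after knockdown in both lines, at 20.7 and 9.44 FPKM, against 14.1 and 7.60 FPKM with vector.

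PVRL2, the most abundant ligand gene of these 4 libraries per length, had 39.9 FPKM in knockdown and 64.8 FPKM in vector KYSE30, and 30.4 FPKM in knockdown and 42.4 FPKM in vector KYSE180. Both knockdown values lay below both vector values, as they did for ULBP1 and for 8.19% of all genes on scaled values. PVRL2 came close to overlap in scaled FPKM, at 40.6 in knockdown KYSE30 and 40.9 in vector KYSE180. Its log2 fold change was -0.58 ± 0.19 (SE, 95% interval -1.07 to -0.10), with an unadjusted p of 0.0273 and an adjusted p of 0.767 (limma). PVR had 20.7 FPKM in knockdown and 14.1 FPKM in vector KYSE30, and 9.44 FPKM in knockdown and 7.60 FPKM in vector KYSE180. The groups overlapped, and the log2 fold change was 0.40 ± 0.20 (SE, 95% interval -0.12 to 0.92, adjusted p 0.818, limma). The DNAM1 ligand genes thus had fold changes of opposite sign, and PVRL2 supplied 65.8% of their summed FPKM in knockdown and 82.2% in vector KYSE30, and 76.3% in knockdown and 84.8% in vector KYSE180.

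ULBP1 had 0.923 FPKM in knockdown and 2.13 FPKM in vector KYSE30, and 1.64 FPKM in knockdown and 2.19 FPKM in vector KYSE180. ULBP2 had 5.36 FPKM in knockdown and 7.15 FPKM in vector KYSE30, and 8.75 FPKM in knockdown and 15.1 FPKM in vector KYSE180. ULBP3 had 9.21 FPKM in knockdown and 11.9 FPKM in vector KYSE30, and 4.12 FPKM in knockdown and 5.04 FPKM in vector KYSE180. All 3 were lower after knockdown in each line, without overlap of the groups in ULBP1 and with overlap in the other two. The log2 fold change was -0.49 ± 0.25 for ULBP1, -0.54 ± 0.22 for ULBP2 and -0.29 ± 0.21 for ULBP3 (SE, adjusted p 0.810, 0.774 and 0.850, limma). RAET1L, the near relative of ULBP2, had 8.71 FPKM in knockdown and 25.5 FPKM in vector KYSE30, and 2.96 FPKM in knockdown and 9.84 FPKM in vector KYSE180. At -1.45 ± 0.20 (SE, adjusted p 0.607, limma), its log2 fold change was larger in size than that of any of the 7 ligand genes, and the part of shared reads in either gene was not tested. In the interferon tables, which are on another scale, untreated KYSE30 had only 0.29 FPKM of RAET1L, and this mismatch was not resolved.

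MICA had 6.15 FPKM in knockdown and 7.36 FPKM in vector KYSE30, and 3.08 FPKM in knockdown and 4.91 FPKM in vector KYSE180. Its log2 fold change was -0.38 ± 0.23 (SE, 95% interval -0.96 to 0.20, adjusted p 0.820, limma). MICB had 0.282 FPKM in knockdown and 0.259 FPKM in vector KYSE30, and 1.44 FPKM in knockdown and 4.49 FPKM in vector KYSE180. MICB was listed under 1 FPKM in both KYSE30 libraries, so the fitted value of -0.57 ± 0.34 (SE, adjusted p 0.820, limma) rests on KYSE180, and without that line it was 0.02. The knockdown tables list MICA in 5 rows and MICB in 8, copies of the gene on alternate MHC haplotypes, and their FPKM were summed. The MICA row of the GENCODE gene placed above had 1.84 FPKM in knockdown and 1.74 FPKM in vector KYSE30. In KYSE180 that row had 0.807 FPKM in knockdown and 1.24 FPKM in vector. Another MICA row had 0.750 FPKM in knockdown and 0 in vector KYSE180, and the remaining MICA rows were lower in both lines. Of the 8 MICB rows, 4 were at 0 in every library, and how reads were assigned among these copies was not tested. In the interferon tables, which are on another scale, the same line had 7.51 FPKM of MICB with IFN-β and 5.39 FPKM untreated. The summed FPKM of the 5 NKG2D ligand genes was 21.9 in knockdown and 28.8 in vector KYSE30, and 19.0 in knockdown and 31.7 in vector KYSE180.

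Most tested genes of the inhibitory list had negative values after knockdown, as did 6 of the 7 ligand genes and 6302 of all 12799 genes tested. None of its 8 tested genes passed, and 7 of them had negative values, with a median of -0.49, which was also the median of the 7 ligand genes, against 0.00 for all genes. HLA-E had 5.63 FPKM in knockdown and 8.49 FPKM in vector KYSE30, and 4.43 FPKM in knockdown and 12.0 FPKM in vector KYSE180, a log2 fold change of -0.89 (adjusted p 0.767, limma). HLA-B had 170.4 FPKM in knockdown and 333 FPKM in vector KYSE30, and 163 FPKM in knockdown and 274 FPKM in vector KYSE180, a log2 fold change of -0.86 (adjusted p 0.742, limma). In the untreated interferon libraries HLA-E had stood above HLA-B instead, at 54.97 against 48.32 FPKM in KYSE30 and 140.05 against 72.70 FPKM in KYSE180. How reads of the HLA genes were assigned in either experiment was not tested. IRF1, the gene beside the knockdown target and a known activator of MHC class I genes, had 5.88 FPKM in knockdown and 31.1 FPKM in vector KYSE30, and 1.20 FPKM in knockdown and 1.83 FPKM in vector KYSE180. That is a log2 fold change of -1.29 (adjusted p 0.767, limma), most of it from KYSE30. None of the 27 regulators passed, nor did any of the 9 interferon-response genes, whose values were all negative with a median of -0.96.

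Other genes of the pathway gave no call after knockdown either. The 7 tested genes for further activating or adhesion ligands all had positive values, with a median of 0.34, led by CD58, the ligand of CD2, at 0.58 (adjusted p 0.767, limma) and BAG6, a ligand of NKp30, at 0.54 (adjusted p 0.809, limma). BAG6 ranged from 2.02 to 4.43 FPKM in the knockdown tables and from 26.6 to 39.9 FPKM in the interferon tables, which are on another scale. Among 9 shedding genes the largest values were -0.51 for MMP14 and -0.49 for MMP2, both metalloproteinases. GOLM1 had 10.8 FPKM in knockdown and 23.6 FPKM in vector KYSE30, and 7.32 FPKM in knockdown and 14.6 FPKM in vector KYSE180. Its log2 fold change was -0.99 (adjusted p 0.742, limma), the largest in size of the 7 tested genes listed as acting after synthesis. The 4 tested nectin and nectin-like genes lay between -0.17 and 0.09. Of the 10 epithelial markers 6 had negative and 4 positive values, from -1.09 for KRT14 (adjusted p 0.651, limma) to 0.53 for KRT5 (adjusted p 0.808, limma), and the part of such a difference in the ligand values was not tested.

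The lines differed in MICB, ULBP1, ULBP2, PVR and PVRL2 in the interferon experiment. KYSE180 stood apart with high MICB, ULBP1 and ULBP2 and low PVR, and KYSE450 with low MICB and PVRL2. The summed FPKM of the 5 NKG2D ligand genes was 35.3 in IFN-β-treated and 32.3 in untreated KYSE30, 98.75 in IFN-β-treated and 59.5 in untreated KYSE180, and 40.9 in IFN-β-treated and 26.0 in untreated KYSE450. MICB supplied 47.5% of that sum in IFN-β-treated KYSE180, where in untreated KYSE180 the most abundant of the 5 was ULBP2 at 34.3%, and MICA led in the 4 libraries of KYSE30 and KYSE450. Differences between lines are common among all genes, so the counts of called ligand genes below are to be read against those shares.

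**Figure D4:**
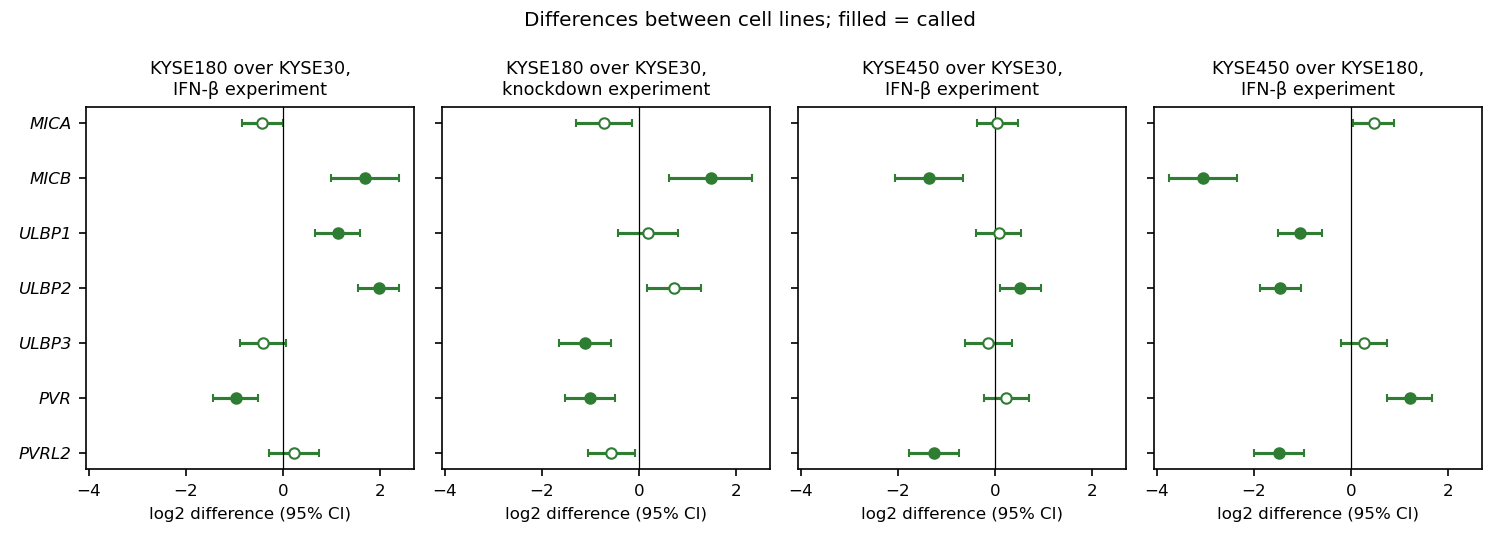
Log2 difference between lines (horizontal axis, of scaled FPKM + 1, with 95% interval) of the 7 ligand genes, from 2 libraries per line, in the interferon experiment and, in the second panel, in the separate libraries of the knockdown experiment. Filled points passed the test, among them PVR, lower in KYSE180 than in KYSE30 in both experiments. In the knockdown experiment MICB reached the filter on low values only through KYSE180.

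In the interferon experiment 4 of the 7 ligand genes differed between KYSE180 and KYSE30, against 45.6% of all genes. ULBP2 was higher in KYSE180 by 1.98 ± 0.18 on the log2 scale (SE, n = 2 libraries per line, adjusted p 0.000365, limma), MICB by 1.70 ± 0.29 (adjusted p 0.00468, limma) and ULBP1 by 1.13 ± 0.19 (adjusted p 0.00407, limma). PVR was lower by 0.98 ± 0.20 (log2 difference -0.98, adjusted p 0.0075, limma), and lost its call when the untreated KYSE30 library was left out (-0.69, adjusted p 0.103, limma). In the knockdown experiment, with its own libraries, 3 of the 7 differed, against 28.4% of all genes. MICB was again higher in KYSE180, by 1.49 ± 0.34 (adjusted p 0.0295, limma), and PVR again lower, at -1.0 ± 0.20 (adjusted p 0.0217, limma). MICB reached the 1 FPKM filter only in the KYSE180 libraries of that experiment, so that a difference was bound to be seen if it was tested at all. ULBP2 was also on the higher side there, at 0.73 (95% interval 0.17 to 1.29, adjusted p 0.0642, limma), while ULBP3 was lower in KYSE180, at -1.11 ± 0.21 (adjusted p 0.0183, limma), where the interferon experiment had given -0.40 (adjusted p 0.141, limma). None of the 3 was called without the filter on low values, where the adjusted p was 0.105 for MICB, 0.0684 for PVR and 0.0602 for ULBP3 (limma). Without either vector library the MICB difference was 0.89.

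KYSE450 differed from KYSE30 in 3 of the 7 genes, against 46.4% of all genes. MICB was lower in KYSE450, at -1.35 ± 0.29 (adjusted p 0.011, limma), and PVRL2 lower, at -1.25 ± 0.22 (adjusted p 0.0044, limma). ULBP2 was higher by 0.53 ± 0.18 (adjusted p 0.0497, limma), just inside the threshold, and lost its call with each of the 4 libraries of these lines left out in turn. None of these 3 calls was left without the untreated KYSE30 library, where the adjusted p was 0.0811 for MICB, 0.053 for PVRL2 and 0.118 for ULBP2 (limma). MICB also lost its call without the IFN-β-treated KYSE450 library (-1.18, adjusted p 0.0842, limma). KYSE450 differed from KYSE180 in 5 of the 7, against 49.3% of all genes. MICB was lower in KYSE450, at a log2 difference of -3.05 ± 0.29 (adjusted p 0.000607, limma), as were PVRL2 at -1.48, ULBP2 at -1.45 and ULBP1 at -1.05, and PVR was higher by 1.22 ± 0.20 (adjusted p 0.003, limma).

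By level, MICB ran from KYSE180 over KYSE30 to KYSE450, with every neighbour in that order called different. ULBP2 and ULBP1 were highest in KYSE180, and in ULBP1 KYSE450 and KYSE30 were not called different (0.08, 95% interval -0.38 to 0.55). PVR was lowest in KYSE180, with KYSE450 and KYSE30 apart by 0.24 (95% interval -0.23 to 0.71), and PVRL2 was lowest in KYSE450, with KYSE180 and KYSE30 apart by 0.23 (95% interval -0.29 to 0.75). For MICA the largest difference was 0.48 between KYSE450 and KYSE180 (95% interval 0.05 to 0.90, adjusted p 0.0621, limma), and for ULBP3 it was -0.40 between KYSE180 and KYSE30 (95% interval -0.88 to 0.07), neither of them called. MICA and ULBP3 were thus the ligand genes with no called difference between lines in the interferon experiment with all libraries. Without the IFN-β-treated KYSE180 library MICA was called in KYSE450 over KYSE180 (0.69, adjusted p 0.0286, limma) and in KYSE180 over KYSE30 (-0.64, adjusted p 0.0373, limma). Without the untreated KYSE180 library ULBP3 was called in KYSE180 over KYSE30 (-0.66, adjusted p 0.0471, limma).

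The genes whose pattern over the 6 interferon libraries was nearest to that of each ligand gene were found by the root mean square difference of centred log2(scaled FPKM + 1), among 8879 genes with a mean scaled FPKM of 5 or more. They were ZNF787 (0.04) and SIRT3 (0.07) for MICA, MDK (0.22) and PHF1 (0.45) for MICB, and ZNF394 (0.04) and NDUFS8 (0.05) for ULBP1. For ULBP2 they were FAM158A (0.07) and SOX21 (0.14), and for ULBP3 ATRN (0.07) and STAG2 (0.08). For PVR they were GNL2 (0.06) and DNMT1 (0.08), and for PVRL2 PHF15 (0.16) and SOX13 (0.16). The 7 ligand genes were left out of the genes compared, so likeness among them was not examined, and the 6 libraries come from 3 lines. MICB had the widest spread of the 7 over these libraries, with an SD of 1.47 on the log2 scale, and ULBP3 the narrowest, with 0.29.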

How the data were processed

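The authors deposited FPKM (per the file headers), with a separate table for each library. TopHat, HTSeq and hg38 are named in the submitters' processing notes, and the role of each, the annotation and the strand setting are stated in no source used here. Each interferon table stacks long non-coding transcripts, summed here to 16044 genes, and 20501 named genes. The 23555 rows of the knockdown tables were summed by gene name to 22554. Genes at 1 FPKM or more in at least 3 libraries (interferon) or 2 (knockdown) were tested on log2(scaled FPKM + 1) with limma 3.58.1 in R 4.3.3 (trend and robust options), with the line as a block and Benjamini-Hochberg adjustment over all tested genes at 0.05. Each experiment was fitted apart. The line is the replicate number, and libraries of a line deviated together (r = 0.841 to 0.910 in the interferon and 0.843 in the knockdown experiment). The fit was tested on simulated data with changes of 1 or 2 on the log2 scale, all of which were recovered. Those data had the same spread for all genes and changes in higher genes only, so smaller changes and low genes were not tested. The members and gene lists were chosen with earlier results of these data known. From each list, up to 4 called genes are named, or else the 2 with the largest fold change; HLA-E, HLA-G, CD274, ADAM10, ADAM17, HSF1, ATM, ATR and HCP5 were added after their values were seen, and some listed genes are not reported here. Sequences come from RefSeq (GRCh38.p14), where all 7 genes matched, and positions from GENCODE 29. Settings tried otherwise were deposited values, a pseudocount of 0.1, no filter, no robust option, no block and each library or line left out.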

Additional observations from a re-analysis of the deposited data

How the results depend on the processing

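Without the replicate block for the line, 13 genes were called under IFN-β, against 55 with it, and none of them was a ligand gene, IRF1 or one of the 5 inhibitory ligand genes called with it (adjusted p 0.142 for HLA-B and LGALS9, 0.166 for HLA-F, 0.929 for HLA-C and 1.0 for HLA-E, limma). With values as deposited 237 were called, 1 of them a ligand gene (MICB), from the implausibly small p-values of that fit. Without the filter 15 were called. Leaving out 1 line gave 61 to 77. After knockdown no gene was called under any setting tested, the fit without the replicate block included, and leaving out a line left 1 pair, with values but no test. KYSE180 against KYSE30 gave 2649 to 5066 calls with 1 library left out of the interferon experiment, against 5671. KYSE450 against KYSE30 gave 2702 to 4228, against 5761, and 0 to 2 ligand genes, against 3. In the knockdown experiment KYSE180 against KYSE30 gave 1063 calls and 0 ligand genes without the filter, against 3634 and 3. Under IFN-β, RAET1L came to 0.029 as deposited and, with a line left out, to -0.20 to 0.011, ULBP1 to -0.021 to 0.20, PVRL4 to -0.021 to 0.17 and PVRL3 to -0.024 to 0.22. After knockdown with a line left out, MICB came to -1.16 to 0.024, CADM4 to -0.45 to 0.12, COL1A1 to -0.95 to 0.027 and PVRL3 to -0.058 to 0.24. With 1 library left out, PVRL2 in KYSE180 against KYSE30 came to -0.11 to 0.58 in the interferon experiment, and ULBP1 to -0.0295 to 0.41 in the knockdown experiment. In KYSE450 against KYSE30, MICA came to -0.11 to 0.22, ULBP1 to -0.053 to 0.22, ULBP3 to -0.36 to 0.10 and PVR to -0.05 to 0.53. The cause of these shifts was not tested. The depth of the interferon libraries is unknown, so the counting error of low genes such as ULBP1 cannot be given.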
